A study of Mus musculus with 6 samples.

Results

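The 9 genes Cxcr6, Cxcr3, Cxcr4, Cxcr5, Cx3cr1, Ccr2, Ccr6, Ccr7 and Ccr9 encode receptors for chemokines, and they were taken by name from the 33696 genes of 3 single-cell RNA libraries of mouse liver immune cells. Each name matched 1 gene row, and all 9 had unique molecular identifiers (UMIs, tags that count single RNA molecules) in every library. Their levels were compared across invariant natural killer T (iNKT) cells, other αβ T cells, NK cells, type 1 innate lymphoid cells (ILC1), B cells and myeloid cells. The study addressed hyodeoxycholic acid (HDCA), a bile acid, in fatty liver and its link to iNKT cells. The group called WT HFD was wild type (WT) and ate a 60% high-fat diet. The group called WT HFD+HDCA was also WT and ate that diet with 0.25% HDCA. The group called iNKT KO HFD+HDCA was Jα18-/- and ate the diet with HDCA. Every group was fed the high-fat diet for 12 weeks, and no group on normal diet was analysed here. Each group gave 1 RNA library and 1 T cell receptor (TCR) library from 10000 sorted cells. The number and age of the mice are not given in the sources used here, and the labels name CD45 in one field and CD4 in another as the sorting marker.

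Chemokine receptors couple to inhibitory G proteins and steer a cell along the gradient of a secreted or membrane-held ligand. In the liver, CXCR6 on iNKT cells and resident lymphocytes meets CXCL16 on the sinusoidal endothelium, CXCR3 answers interferon-induced CXCL9 and CXCL10, and CCR2 brings in monocytes that follow CCL2. CCR7, CXCR5 and CCR6 place lymphocytes within lymphoid tissue, CCR9 directs cells to the CCL25 of thymus and small intestine, CX3CR1 marks patrolling monocytes and cytotoxic lymphocytes, and CXCR4 holds cells near CXCL12.

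The libraries held 6479, 10228 and 7153 barcodes with 44332213, 70776925 and 46600746 UMIs in the order WT HFD first, WT HFD+HDCA second and the knockout last, which is kept for every series of 3 values. After filters and removal of doublets, 6183, 9680 and 6838 cells were left, at a median of 5617, 5467 and 5120.5 UMIs. Pairs of libraries shared 67 to 93 barcode sequences. Traj18, the deleted segment, had 172, 160 and 0 UMIs. In the α chains without an invariant rearrangement, segments TRAJ19 and higher served 75.5%, 73.0% and 12.3%, so the knockout library also differed in other T cell receptors. With 1 library per group, any difference between groups is a difference between single libraries, and all intervals and limits cover counting error alone.

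Classes were set without any receptor gene of the set. iNKT cells carried an α chain joining TRAV11 or TRAV11D to TRAJ18 and numbered 315, 427 and 1, so the knockout gave no iNKT level. The class of other αβ T cells required both chains, neither invariant (1761, 2532 and 1749 cells). The marker gates gave 457, 776 and 429 NK cells, 72, 79 and 180 ILC1, 2049, 3300 and 2625 B cells, and 422, 897 and 468 myeloid cells. No class was given to 982, 1516 and 1308 cells. UMIs of the 3 CD3 genes, which the TCR-based classes did not use, were found in at least 99.8% of iNKT and other αβ T cells. The gates of the other 4 classes allowed at most 1 such UMI, and 2.56% to 9.44% of their cells had it. B and myeloid cells were plainly present, so the libraries held more than CD4 T cells. The median depth was 7748 and 7242 UMIs in iNKT cells, 7005, 7016 and 6930 in other αβ T cells, 5076, 5150 and 4819 in NK cells, 8199, 6709 and 7642 in ILC1, 4464, 4347.5 and 4169 in B cells, and 10350, 9868 and 9775 in myeloid cells. Levels are therefore given as counts per 1000000 UMIs (CPM) of the class, beside the share of cells with a UMI.

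The sequences that define the first class and the promoters of the pair of receptors that led it are shown. The most frequent invariant α chain was the same nucleotide CDR3 in both WT libraries, in 113 of 315 iNKT cells (35.9%) of WT HFD and in 152 of 427 (35.6%) of WT HFD+HDCA. It was 1 of 16 and 1 of 19 distinct sequences, so the class was made of many rearrangements and not of 1 clone. The sequence, from the V to the J end, was:
iNKT α CDR3: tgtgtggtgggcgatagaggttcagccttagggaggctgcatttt

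Cxcr6 and Cxcr3 were highest in the same classes, and the 250 bases before their annotated starts were read from RefSeq (GRCm38.p6). Of the 9 genes, 7 had a promoter entry there. The windows were searched on both strands for TGTGGT, a core motif of RUNX factors, and the match is in capitals. It was present in the windows of Cxcr6, Cxcr3 and Cx3cr1 and in 14.05% of all 32851 promoters of that length. GGTGTG, a T-box half-site, was in neither of the windows below and was found in 16.3% of all promoters. The windows were at chr9:123806227-123806476 on the plus strand for Cxcr6 and at chrX:101734148-101734397 on the minus strand for Cxcr3. A match is only a description of the letters.
Cxcr6: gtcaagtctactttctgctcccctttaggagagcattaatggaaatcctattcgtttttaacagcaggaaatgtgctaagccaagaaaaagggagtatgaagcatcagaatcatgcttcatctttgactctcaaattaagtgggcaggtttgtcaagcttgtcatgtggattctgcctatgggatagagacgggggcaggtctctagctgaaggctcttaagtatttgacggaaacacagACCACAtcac
Cxcr3: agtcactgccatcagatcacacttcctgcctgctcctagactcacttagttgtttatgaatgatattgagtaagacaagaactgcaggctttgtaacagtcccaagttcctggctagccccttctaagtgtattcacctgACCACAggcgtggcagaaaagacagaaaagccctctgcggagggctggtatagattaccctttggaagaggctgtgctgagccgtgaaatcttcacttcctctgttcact

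iNKT cells carried the most Cxcr6 of the 6 classes and the most Ccr9 of the lymphocyte classes, shared the highest Cxcr3 with ILC1, and had hardly any Ccr7, Cxcr5 or Ccr6. Cxcr6 was at 726 CPM (693 to 759) without HDCA and 778 CPM with it, in 95.6% and 94.85% of cells. Other αβ T cells had 114, 125 and 135 CPM in 28.6%, 35.6% and 34.0% of cells. B cells, which should lack the gene, had a Cxcr6 UMI in 0.195%, 0.455% and 0.190% of cells, so the share in T cells was far above background.

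Against other αβ T cells, tested on sums per library with edgeR's quasi-likelihood test, Cxcr6 was higher in iNKT cells by 2.57 on the log2 scale (SE 0.19, adjusted p = 1.1e-09). Ccr2 was higher by 1.89 (SE 0.14, adjusted p = 1.3e-09), at 197 and 193 CPM in iNKT cells against 35.1, 58.9 and 42.4. Ccr9 was higher by 1.94 (SE 0.20), at 38.7 and 54.3 CPM against 12.6, 11.8 and 11.1. Cxcr3 was higher by 1.06 (SE 0.13), at 386 and 373 CPM against 140, 181 and 164. For these 4 genes no library of iNKT cells overlapped any library of other αβ T cells. How many of all genes separate in this way was not counted.

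The lymphoid receptors went the other way. Ccr7 was lower in iNKT cells by a log2 difference of -5.27 (SE 0.42, edgeR adjusted p = 3.6e-09): 10.9 and 12.7 CPM in 2.54% and 2.11% of cells, against 455, 413 and 472 CPM in 60.6%, 54.0% and 58.9% of other αβ T cells. In both libraries 1 cell held a large part of the Ccr7 UMIs of the iNKT class, 42.9% of 28 UMIs and 52.4% of 42. Cxcr5 had 0 and 7 UMIs in iNKT cells, where 0 allows up to 1.17 CPM, against 15.9 to 18.2 CPM in other αβ T cells. Ccr6 had 2 and 0 UMIs. Cxcr4 was lower by a log2 difference of -1.37 (SE 0.19), at 17.6 and 14.6 CPM against 38.0, 38.6 and 52.4, and Cx3cr1 by -1.83 (SE 0.45), at 3.52 and 6.97 CPM against 18.4, 22.5 and 11.2.

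All 9 receptors passed the test between iNKT and other αβ T cells, 4 higher and 5 lower, where 23.0% of all 13720 genes tested did. The call of Ccr6 was lost without WT HFD+HDCA and at 2000 UMIs per cell, and that of Cx3cr1 without WT HFD. The test compares classes over libraries of different conditions and averages over them. iNKT cells had a sum in the 2 WT libraries alone, so this contrast and that with ILC1 rest on the iNKT levels of those libraries.

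**Figure D1:**
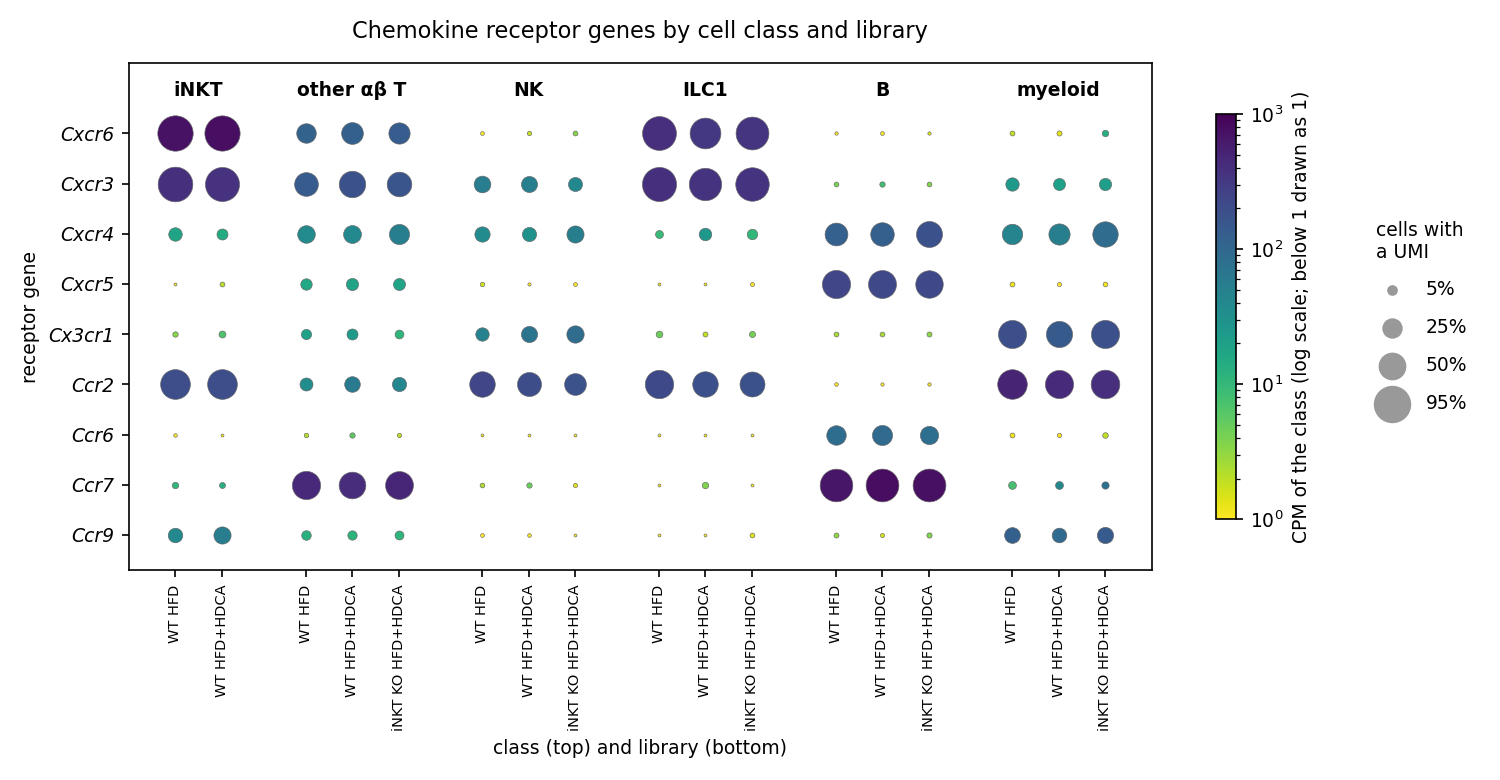
Each dot is a receptor gene (rows) in a class and library (columns); its colour is the CPM of the class on a log scale and its area the share of cells with a UMI. iNKT cells and ILC1 share large Cxcr6, Cxcr3 and Ccr2 dots, B cells carry Ccr7, Cxcr5, Cxcr4 and Ccr6, and myeloid cells carry Ccr2, Cx3cr1 and Ccr9.

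NK cells and ILC1, innate lymphocytes that share NK1.1 and NKp46, had Ccr2 in common and were apart for Cxcr6, Cxcr3 and Cx3cr1. Cxcr6 in ILC1 was at 392, 324 and 341 CPM, in 87.5%, 72.2% and 82.2% of cells. In NK cells it had 2, 8 and 8 UMIs, or 0.780, 1.78 and 3.51 CPM, close to the level in B cells. The difference, NK against ILC1, was -7.44 on the log2 scale (SE 0.39, edgeR adjusted p = 5.8e-12). Cxcr3 was at 387, 365 and 359 CPM in ILC1 and at 55.4, 51.4 and 40.3 CPM in NK cells (log2 difference -2.92, SE 0.15, edgeR adjusted p = 6.2e-12). Neither gene overlapped between the classes in any library, and the share of all genes that separate in this way was not counted.

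Cx3cr1, a receptor of mature cytotoxic cells, was higher in NK cells by 4.15 on the log2 scale (SE 0.56, edgeR adjusted p = 8.2e-06). It was at 46.4, 72.3 and 89.4 CPM in NK cells and rested on 3, 1 and 6 UMIs in ILC1. Cxcr4 was higher by 1.64 (SE 0.28, edgeR adjusted p = 1.2e-04), at 37.1, 31.2 and 52.1 CPM against 9.44, 25.8 and 10.7 in ILC1, where the counts were 6, 14 and 15 UMIs. That call was lost without the knockout library, without the library term and with every cell thinned to 2000 UMIs. Ccr2 did not pass: it was at 237, 200.1 and 175 CPM in NK cells and 219, 184 and 180 CPM in ILC1 (log2 difference 0.06, SE 0.15, edgeR adjusted p = 0.887). Ccr6 was undetected in both classes in all 3 libraries, which allows at most 1.31 CPM in NK cells and 5.53 CPM in ILC1 of a library. In all, 4 of the 9 receptors passed between NK cells and ILC1, where 17.6% of all genes did.

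ILC1 and iNKT cells, an innate and a T cell class that both reside in the liver, were told apart by the test in Cxcr6 and Ccr9 among the 9 genes. Cxcr6 was lower in ILC1 by a log2 difference of -1.31 (SE 0.21, edgeR adjusted p = 1.3e-04), a call that DESeq2 on the same sums did not make at a log2 difference of -1.44. Ccr9 had 0, 0 and 2 UMIs in ILC1 against 99 and 179 UMIs in iNKT cells (edgeR adjusted p = 3.5e-07). Cxcr3 (log2 difference -0.07, SE 0.14) and Ccr2 (-0.0022, SE 0.17) did not pass. Ccr7, on 0, 2 and 0 UMIs in ILC1, did not pass either (edgeR adjusted p = 0.148) but did with DESeq2, without WT HFD, with no filter on low counts and with doublets kept. The 2 receptors called compare with 14.8% of all genes between these classes.

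Cells between the gates were left out of both classes. Those with an NK-lineage UMI and both lists of markers numbered 108, 203 and 196. They had Cxcr6 at 77.7, 92.1 and 127 CPM, between the levels of NK cells and ILC1, with Cxcr3 at 185, 167 and 189 CPM.

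Within NK cells the receptors divided the class. Of NK cells with a Cx3cr1 UMI, 31.7%, 20.5% and 11.5% also had a Ccr2 UMI, against 52.1%, 49.1% and 42.6% of those without. Cxcr3 was seen in 5.0%, 3.97% and 4.17% of the NK cells with Cx3cr1 and in 23.2%, 22.9% and 17.4% of those without. When each cell was thinned to 2000 UMIs to set depths equal, none of 31, 83 and 52 NK cells with Cx3cr1 had Cxcr3, against 9.55%, 9.49% and 7.02% of those without. Cxcr3 and Ccr2 went together instead: 75.8%, 70.5% and 61.3% of NK cells with Cxcr3 had Ccr2, against 42.5%, 37.2% and 31.3% without. The direction was the same in all 3 libraries. Cells of a library are not replicates, and these shares are given without a test.

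In other αβ T cells, Cxcr6 and Ccr7 were mostly seen in different cells: 14.7%, 23.8% and 15.7% of cells with a Ccr7 UMI had a Cxcr6 UMI, against 347 of 694 cells, 49.5% and 60.3% of those without. At 2000 UMIs per cell the shares were 5.30%, 7.10% and 3.67% against 20.8%, 23.0% and 29.6%. The receptors followed the split into naive-marked and effector-marked cells, made from 5 naive and 4 effector marker genes. Naive T cells keep CCR7 to enter lymph nodes, and effector cells exchange it for receptors of inflamed tissue. In CD4 cells, Ccr7 was at 963, 1076 and 984 CPM in the naive-marked and at 105, 80.8 and 72.0 CPM in the effector-marked cells. In CD8 cells it was at 735, 801 and 851 CPM and at 159, 209 and 240.0 CPM. The log2 differences were -3.80 (SE 0.13, edgeR adjusted p = 4.2e-14) and -2.12 (SE 0.10, edgeR adjusted p = 5.0e-12).

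Cxcr3, Cxcr6 and Ccr2 rose from naive-marked to effector-marked cells in both lineages. In CD4 cells Cxcr3 went from 9.08, 16.97 and 2.21 CPM to 341, 376 and 414 CPM (log2 difference 5.0, SE 0.19), and Cxcr6 from 1.82, 10.7 and 1.48 CPM to 255, 305 and 350 CPM (5.82, SE 0.34). Ccr2 went from 2, 6 and 2 UMIs to 149, 186 and 108 CPM (5.97, SE 0.33). In CD8 cells the same genes began higher: Cxcr3 was at 30.6, 41.3 and 35.0 CPM in naive-marked cells and 208, 224 and 220 CPM in effector-marked cells (2.46, SE 0.12). Cxcr6 was at 38.6, 54.1 and 34.7 CPM and at 198, 135 and 130 CPM (1.68, SE 0.18). Ccr2 had 3, 2 and 11 UMIs in naive-marked CD8 cells and was at 40.6, 63.9 and 52.4 CPM in effector-marked ones (4.89, SE 0.30). All of these passed edgeR's test with adjusted p-values of 5.2e-07 or lower. Whether the CD4 and CD8 differences themselves differ was not tested.

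In CD8 cells Cx3cr1 was at 46.3, 48.2 and 19.6 CPM in effector-marked cells, against 2.55, 2.31 and 2.58 CPM in naive-marked CD8 cells (log2 difference 3.76, SE 0.37, edgeR adjusted p = 1.2e-07). Ccr9 showed the reverse. It was at 50.3, 40.8 and 33.2 CPM in naive-marked CD8 cells, in 26.9%, 23.1% and 17.3% of them, and at 2.98, 4.25 and 2.47 CPM in effector-marked CD8 cells (-3.74, SE 0.24, edgeR adjusted p = 2.5e-10). Naive-marked CD4 cells had only 3, 3 and 2 Ccr9 UMIs. Ccr6, a receptor of IL-17-producing and regulatory T cells, passed in CD4 cells (adjusted p = 5.2e-05, edgeR) but rested on 14, 66 and 7 UMIs in effector-marked cells and 4, 0 and 0 in naive-marked cells. Cxcr4 and Cxcr5 passed in neither lineage. The split called 6 of the 9 receptors in CD4 cells, where 36.1% of all 10597 genes passed, and 6 in CD8 cells, where 31.4% did. Cells within 2 UMIs of the cut made up 2.57% to 8.24% of a lineage.

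**Figure D2:**
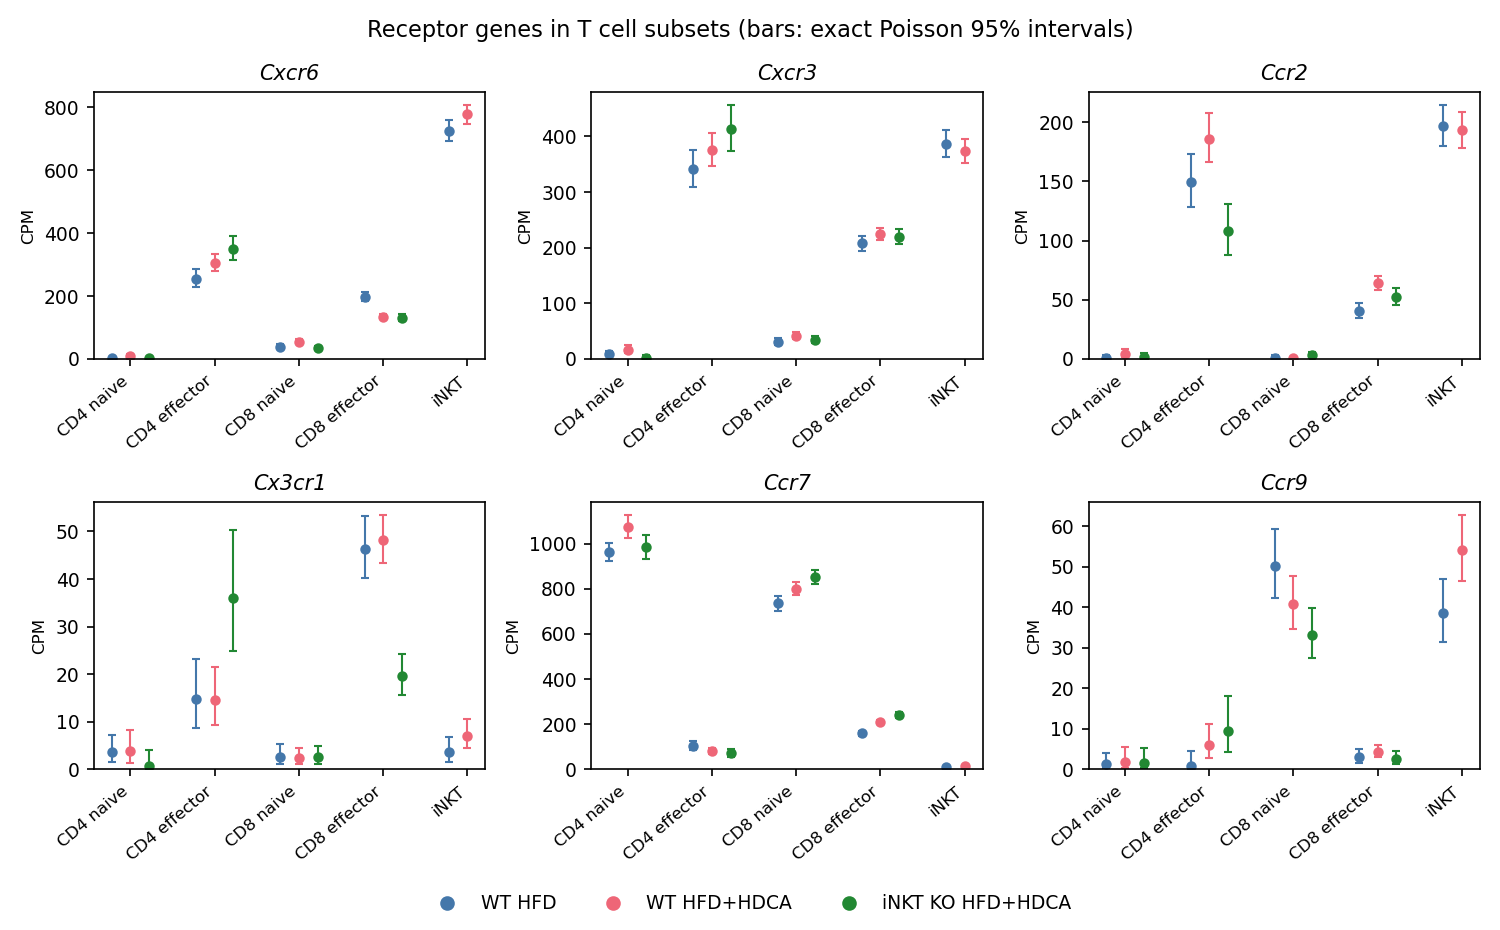
Level in CPM of 6 receptors in naive-marked and effector-marked CD4 and CD8 T cells and in iNKT cells; points are libraries and bars exact Poisson 95% intervals. Cxcr6 of iNKT cells lies above every other subset, Ccr7 stands highest in the naive-marked subsets, and Ccr9 is found in naive-marked CD8 and iNKT cells.

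Receptor use also went with clonotype size, where a clonotype is a set of cells with the same nucleotide CDR3 sequences of both chains. CD8 cells whose clonotype was seen once had Ccr7 in 78.2%, 74.9% and 80.5% of cells, those in clonotypes of 5 or more in 2.96%, 9.41% and 2.38%. For Cxcr3 the shares were 43.4%, 49.9% and 42.4% in single cells and 68.6%, 70.3% and 75.0% in clonotypes of 5 or more. For Cx3cr1 they were 6.09%, 4.91% and 3.69%, and 26.6%, 39.1% and 19.1%. From single cells to clonotypes of 5 or more, each of these genes had 1 direction in all 3 libraries. In WT HFD+HDCA the Cxcr3 share was higher in clonotypes of 2 to 4 cells, at 80.5%, than in those of 5 or more. Cxcr6 was in 29.2%, 35.5% and 25.6% of single cells, and in the clonotypes of 5 or more in 64.5%, 44.1% and 69.0% of cells. In WT HFD+HDCA its share was higher in clonotypes of 2 to 4 cells, at 52.1%. In WT HFD, 1 clonotype of 69 cells had Cxcr6 in 88.4% and Ccr2 in 1.45% of its cells, and without it the Ccr2 level of the large clonotypes there was 75.4 CPM in place of 39.8 CPM, and the Cxcr6 share 48.0%.

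**Figure D3:**
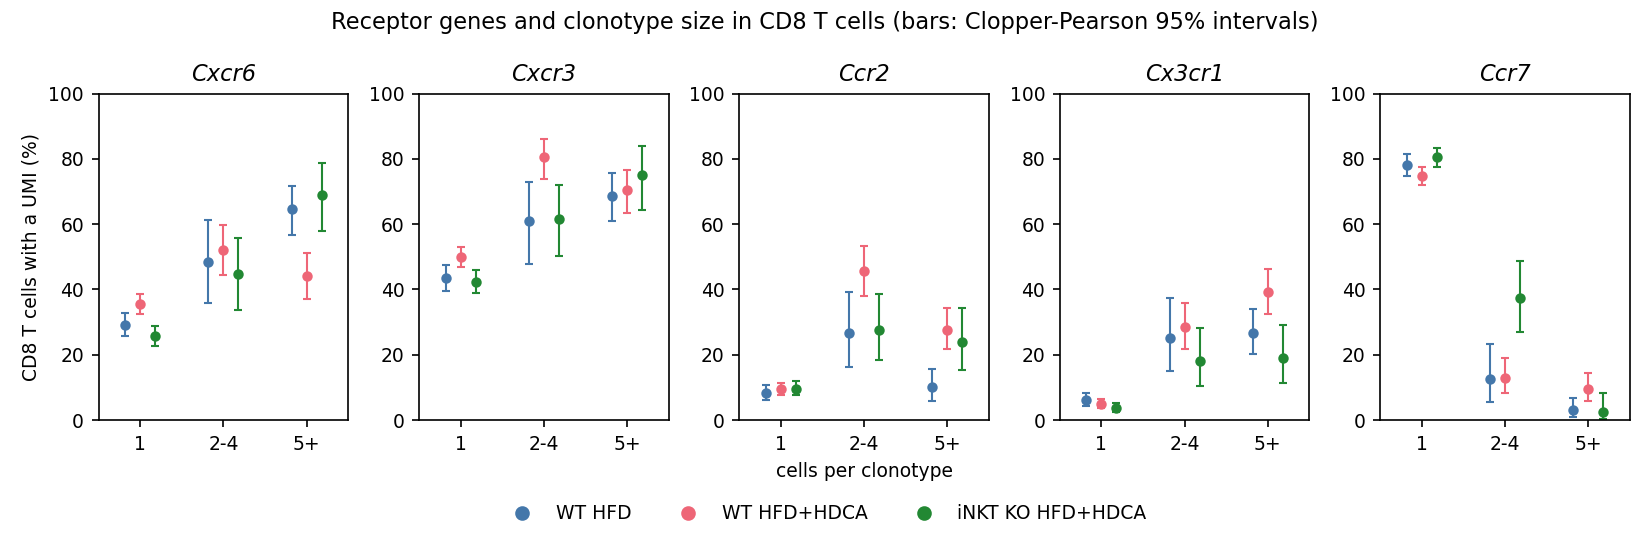
Share of CD8 T cells with a UMI of 5 receptors by the number of cells in their clonotype; points are libraries and bars Clopper-Pearson 95% intervals. Ccr7 is seen in 74.9% to 80.5% of cells with a unique clonotype and in at most 9.41% of those in clonotypes of 5 or more, where Cxcr3 lies between 68.6% and 75.0%.

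Regulatory T cells, set by a Foxp3 UMI (43, 95 and 49 cells), held a mix. Cxcr3 was at 236, 286 and 170 CPM and Ccr7 at 263, 251 and 316 CPM. The pair seldom met in a cell: Ccr7 was seen in 10.0%, 12.5% and 21.4% of the 20, 48 and 14 cells with Cxcr3 and in 52.2%, 44.7% and 48.6% of those without. Cells with CD3 and Trdc UMIs and no contig, a marker of γδ T cells (125, 153 and 78 cells), had Cxcr6 at 252, 280 and 381 CPM and Cxcr3 at 245, 239 and 136 CPM.

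B cells carried the receptors of lymphoid tissue. Ccr7 was at 676, 789 and 761 CPM in 81.2%, 81.9% and 82.1% of cells. Cxcr5, which guides B cells into follicles toward CXCL13, was at 233, 226 and 226 CPM in 60.4%, 59.3% and 57.4% of cells. NK cells, as a background, had Cxcr5 in 0.129% to 0.875% of cells. Ccr6 was at 86.8, 93.2 and 83.6 CPM, and Cxcr4 at 122, 128 and 182 CPM. Both were above every library of the other 5 classes, and how many of all genes separate in this way was not counted. For Cxcr4 this holds for whole classes: patrolling monocytes of the knockout were at 139 CPM, above B cells of both WT libraries. Against other αβ T cells the log2 differences were 3.71 for Cxcr5 (SE 0.10), 4.71 for Ccr6 (SE 0.18) and 1.73 for Cxcr4 (SE 0.10), each passing edgeR's test. Ccr7 was higher by 0.73 (SE 0.21, edgeR adjusted p = 0.00528), a call lost with DESeq2 and without WT HFD+HDCA. The other 5 receptors were lower in B cells. All 9 were called, where 64.5% of all genes were, so a call between these classes is common.

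B cell subsets differed in Cxcr3 and Ccr6. The cells marked by B1 genes (Bhlhe41, Zbtb32 or Cd5, without Fcer2a and Vpreb3; 37, 82 and 45 cells) had Cxcr3 at 47.3, 119 and 9.57 CPM, against 1.38, 1.72 and 3.00 CPM in the Fcer2a-marked follicular-type cells. The B1-marked cells gave 90 of the 126 Cxcr3 UMIs of all B cells in WT HFD+HDCA. Their Cxcr3 level in the knockout rested on few UMIs, out of 313540 of all genes. Ccr6 in these cells was at 6.76, 13.2 and 44.7 CPM on 2, 10 and 14 UMIs, below the 91.0, 102 and 91.4 CPM of the Fcer2a-marked cells in each library.

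Myeloid cells had the highest Ccr2, Cx3cr1 and Ccr9 of the 6 classes. Ccr2 was at 500, 442 and 390 CPM in the class and at 866, 788 and 669 CPM in classical monocytes (144, 320 and 141 cells), in 92.4%, 90.6% and 92.2% of them. B cells had a Ccr2 UMI in 0.212% to 0.342% of cells. Cx3cr1 was at 192, 147 and 186 CPM in the class, at 267, 186 and 226 CPM in classical and at 301, 230.1 and 315 CPM in patrolling monocytes. Classical monocytes held 409, 633 and 370 of its 804, 1322 and 857 myeloid UMIs and patrolling monocytes 274, 494 and 394. Type 2 conventional dendritic cells (30, 57 and 19 cells) had Ccr2 at 522, 519 and 685 CPM.

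Ccr9 belonged to plasmacytoid dendritic cells (pDC; 69, 118 and 87 cells): 581, 567 and 640 CPM in 95.7%, 91.5% and 94.3% of cells. In classical monocytes it had 4, 5 and 3 UMIs. pDC also held 80 of the 102, 143 of the 181 and 74 of the 98 Cxcr3 UMIs of the myeloid class. Ccr7 rested on few cells: 315 of the 369 myeloid UMIs in WT HFD+HDCA came from 10 mature dendritic cells (3067 CPM), and 293 of 351 in the knockout from 5 (4272 CPM). Against other αβ T cells all 9 receptors were called, where 71.1% of all genes were. Ccr2, Cx3cr1 and Ccr9 were higher by 3.29 (SE 0.12), 3.31 (SE 0.18) and 3.31 (SE 0.14), and the lower call of Ccr6 was lost without WT HFD+HDCA, with DESeq2 and at 2000 UMIs per cell.

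The patrolling gate was not pure. Cells that passed it without an Ace or Treml4 UMI (11, 41 and 11 cells) had Gzma, a gene of cytotoxic lymphocytes, at 4368, 1765 and 3005 CPM. With Ace or Treml4 required, an alternative chosen after seeing the data, Gzma was at 101, 69.8 and 3.62 CPM and Cx3cr1 at 347, 311 and 338 CPM.

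**Figure D4:**
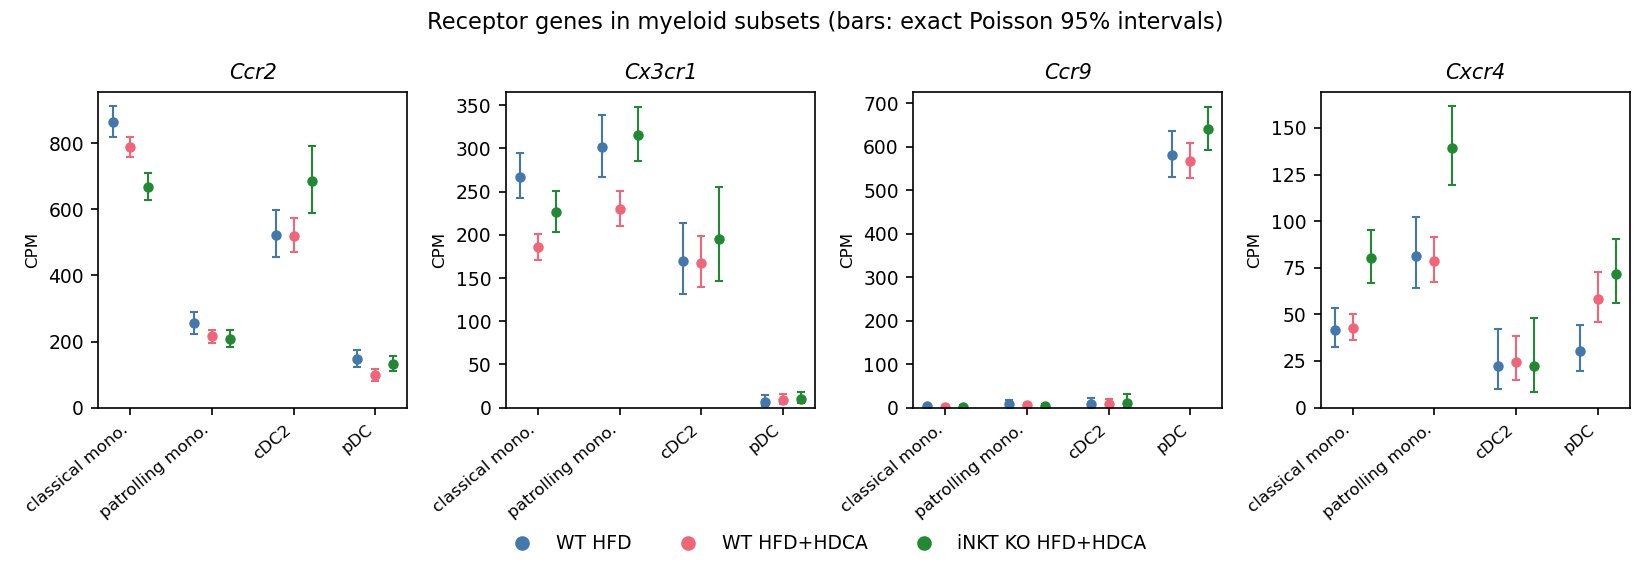
Level in CPM of 4 receptors in classical monocytes, patrolling monocytes, type 2 conventional dendritic cells and pDC; points are libraries and bars exact Poisson 95% intervals. Ccr2 is highest in classical monocytes of the WT libraries, Cx3cr1 in patrolling monocytes and Ccr9 in pDC, and Cxcr4 of both monocyte subsets is highest in the knockout library.

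The number of receptors detected per cell also set the classes apart. An iNKT cell had a UMI of 2.88 and 2.88 of the 9 genes on average, an ILC1 of 2.44, 2.17 and 2.27, a B cell of 2.13, 2.17 and 2.20, and an NK cell of 1.03, 0.999 and 0.967. At 2000 UMIs per cell these became 1.70 and 1.67, then 1.25, 1.19 and 1.25, then 1.34, 1.39 and 1.46, and 0.544, 0.501 and 0.527. NK cells stayed lowest of these 4 classes in every library, and iNKT cells highest in both WT libraries. Other αβ T cells had 1.91, 2.115 and 2.06 and myeloid cells 1.97, 1.79 and 2.11 receptors per cell, near B cells and ILC1. At 2000 UMIs per cell they had 0.996, 1.06 and 1.10, and 0.990, 0.934 and 1.03.

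Across 50 sums of classes and subsets, which share libraries, cells and depth, the log2 levels of Cxcr6 and Cxcr3 had a Pearson r of 0.87, Cxcr5 and Ccr6 of 0.88, and Ccr2 and Ccr7 of -0.89. The genes most like Cxcr6 were Podnl1 (r = 0.95), Cish (0.94) and Bmp7 (0.92), and those most like Cxcr3 were Odc1 (0.92), Cish (0.90) and Lysmd2 (0.89). Cxcr5 was most like Pou2af1 (0.96), Bend5 (0.96) and Cd55os (0.95), and Cx3cr1 most like Snx10 (0.94), Dbi (0.92) and Klf10 (0.92). For Ccr2 they were Atp5l, Niban1 and Serf2 (0.94 to 0.95), for Ccr6 Mif4gd, Mapk12 and Pxdc1 (0.92 to 0.93) and for Ccr7 Rapgef4, Crlf3 and Fam169b (0.90 to 0.93). For Ccr9 they were Cdh1, Ccdc162 and Lrp8 (0.90 to 0.92), and genes like Cxcr4 included Acss1 and Map3k1 (0.84 for both).

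Of 15 ligand genes 5 could be tested, and 4 (Ccl2, Cxcl9, Cxcl10 and Cxcl16) were higher in myeloid than in other αβ T cells, where 71.1% of all genes were called in either direction. The median log2 difference was 6.43 against 0.01 over all genes. Ccl2, the ligand of CCR2, was at 94.7, 83.6 and 76.5 CPM in myeloid cells. Cxcl10, a ligand of CXCR3, was at 132, 103 and 54.6 CPM there and at 13.1, 14.2 and 6.60 CPM in other αβ T cells, and Cxcl16, the ligand of CXCR6, at 28.7, 44.9 and 34.5 CPM. Ccl25, which binds CCR9, was at 8.41 to 19.1 CPM in all 6 classes and did not pass between myeloid and other αβ T cells (log2 difference 0.13, SE 0.13). Ccl19, Ccl20 and Ccl21a, ligands of CCR7 and CCR6, had no UMI in the 6 classes, and Cxcl12 had 2. Stromal, endothelial and liver parenchymal cells, which make many of these ligands, are outside a sort for CD45.

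Other receptors of the family also differed between classes. Ccrl2, an atypical receptor that does not signal through G proteins, was at 36.2, 35.0 and 52.5 CPM in ILC1. In iNKT cells it was at 19.1 and 16.4 CPM. It was higher in ILC1 by 1.20 on the log2 scale (SE 0.25, edgeR adjusted p = 0.0014), and Ccr4 was lower there (log2 difference -4.74, SE 0.92). From naive-marked to effector-marked cells, Ccr4, Ccr8, Ccr10 and Ccrl2 were higher in both lineages. The log2 differences were 4.19, 2.19, 3.67 and 3.09 in CD4 cells (SE 0.42, 0.61, 0.80 and 0.70). In CD8 cells they were 1.92, 4.28, 4.71 and 1.97 (SE 0.65, 1.34, 1.66 and 0.51). The largest CD8 values, of Ccr8 and Ccr10, were thus the least certain (edgeR adjusted p = 0.021 and 0.038). On chromosome 9, RefSeq places Ccr9, Fyco1, Cxcr6, Xcr1, Ccr1, Ccr1l1, Ccr3 and Ccr2 in a row, so 3 of the 9 genes, Ccr9, Cxcr6 and Ccr2, are close neighbours with different class patterns.

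Of 18 genes that carry or end the receptor signal, Rac2, Gnai2 and Dock2 had the most UMIs in all 6 classes. Gnai2, the inhibitory G protein subunit itself, was at 546 to 1054 CPM in every class and library. Rgs1, which ends G protein signalling, was at 459, 591 and 562 CPM in ILC1, 224, 209 and 255 CPM in NK cells, and 270 and 250.3 CPM in iNKT cells. It was lower in NK cells than in ILC1 by a log2 difference of -1.23 (SE 0.09, edgeR adjusted p = 2.1e-09). In the iNKT comparison 7 of the 18 were higher and 3 lower, where 23.0% of all genes were called (median log2 difference 0.10 against -0.03 over all genes). Grk3, a receptor kinase, was at 124, 120.1 and 135 CPM in myeloid cells and at most 1.98 CPM in any other class.

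Genes of tissue exit and residence also differed. In iNKT against other αβ T cells, Itga1, Zfp683 and Rgs1 were higher, and S1pr1, Klf2, Cd69 and Itgae lower. Zfp683, which encodes the residency factor Hobit, was at 209 and 239 CPM in iNKT cells and 3.81 higher on the log2 scale (SE 0.22). In NK cells against ILC1, S1pr1 and Klf2 were higher (log2 differences 1.53 and 2.82) and Itga1, Rgs1 and Zfp683 lower, while Cd69 and Itgae did not pass the test (log2 differences -0.35 and 1.13). Itga1 was a marker of the ILC1 gate, so its call there follows from the gate.

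For HDCA, WT HFD+HDCA was set against WT HFD. Over the 6 classes, 39 pairs of a receptor and a class had the 20 UMIs set as a minimum, and 9 were at least 1.5-fold apart, where 10.2% of all 65751 pairs of a gene and a class were. Cxcr6 and Cxcr3 in iNKT cells and Cxcr5 in B cells were not among them. The ratio of Cxcr6 in iNKT cells was 1.07 (1.01 to 1.14), of Cxcr3 in iNKT cells 0.968 (0.889 to 1.05) and of Cxcr5 in B cells 0.970 (0.920 to 1.02). Myeloid subsets were outside the 39 pairs. In them the ratio was 0.909 (0.851 to 0.972) for Ccr2 in classical monocytes and 0.975 (0.869 to 1.10) for Ccr9 in pDC. Ccr2 in pDC was past the fold at 0.666 (0.516 to 0.859).

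In other αβ T cells, Ccr2 was higher with HDCA by a ratio of 1.68 (1.505 to 1.87) and Ccr6 by 2.60 (1.72 to 4.07), on 29 and 108 UMIs. Within the subsets, Ccr2 was at a ratio of 1.25 (1.03 to 1.504) in CD4 effector-marked cells, 1.57 (1.32 to 1.88) in CD8 effector-marked cells (1.37, 1.15 to 1.64, without the largest clonotype of each library) and 2.20 (1.45 to 3.46) in regulatory T cells. Naive-marked CD4 cells, which hold almost no Ccr2, were 5.42% of kept cells in WT HFD and 2.72% in WT HFD+HDCA, and their part in the class value was not tested. Ccr6 was seen in 1.74% and 7.26% of CD4 effector-marked cells (ratio 3.48, 1.93 to 6.71). In NK cells Cx3cr1 was at 46.4 and 72.3 CPM (ratio 1.56, 1.26 to 1.94), and at 2000 UMIs per cell its share was 6.89% and 10.8%.

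B cells had more Cxcr3 (4.17 and 8.22 CPM, ratio 1.97, 1.37 to 2.89) and less Ccr9 (3.13 and 1.5 CPM, ratio 0.479, 0.266 to 0.854). At 2000 UMIs per cell the log2 ratio of Cxcr3 was 0.25 in place of 0.98, under 1.5-fold. The B1-marked cells named above held most of these UMIs in WT HFD+HDCA. Myeloid Ccr7 was at 7.65 and 41.0 CPM (ratio 5.36, 3.73 to 7.95), from the 10 mature dendritic cells of WT HFD+HDCA. The other 3 pairs, Cx3cr1 in iNKT cells, Ccr7 in NK cells and Cxcr4 in ILC1, had intervals that include 1. In CD8 effector-marked cells Cxcr6 was lower at a ratio of 0.682 (0.622 to 0.747), from 198 to 135 CPM, which is under 1.5-fold. Without the largest clonotype of each library, which in WT HFD is the one of 69 cells, the levels were 155 and 134 CPM and the ratio 0.863 (0.778 to 0.957).

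The knockout was compared with WT HFD+HDCA, which shares that library with the comparison before. Of 34 pairs of a receptor and a class, 12 were at least 1.5-fold apart, where 11.9% of 56796 pairs of all genes were. Cxcr4, the receptor of CXCL12, was higher in the knockout library in 4 of the 5 classes. It was at 38.6 and 52.4 CPM in other αβ T cells (ratio 1.35, 1.22 to 1.505), 31.2 and 52.1 CPM in NK cells (1.67, 1.30 to 2.15), 128 and 182 CPM in B cells (1.42, 1.34 to 1.51) and 51.8 and 89.0 CPM in myeloid cells (1.72, 1.503 to 1.97). In ILC1 it was lower, on 14 and 15 UMIs (0.413, 0.186 to 0.924). The first 4 ratios had intervals above 1, and WT HFD, at 38.0, 37.1, 122 and 44.7 CPM in those classes, lay below the knockout library in each.

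The same direction was found within subsets. The ratio was 1.87 (1.47 to 2.38) in classical and 1.77 (1.42 to 2.20) in patrolling monocytes, 1.84 (1.24 to 2.75) in naive-marked CD4 cells, 1.54 (1.23 to 1.93) in naive-marked CD8 cells, 1.32 (1.11 to 1.57) in effector-marked CD8 cells and 1.39 (1.30 to 1.49) in Fcer2a-marked B cells. Intervals included 1 in effector-marked CD4 cells, regulatory T cells, γδ-marked cells and pDC. At 2000 UMIs per cell the log2 ratio was 0.45 in place of 0.82 in patrolling monocytes, which is under 1.5-fold. In classical monocytes it was 1.35 in place of 0.90. Patrolling monocytes with Ace or Treml4 required had Cxcr4 at 89.4, 93.9 and 146.5 CPM. Between the WT libraries the Cxcr4 ratio was 1.02 (0.908 to 1.14) in other αβ T cells, 0.841 (0.643 to 1.10) in NK cells, 1.05 (0.977 to 1.13) in B cells and 1.16 (0.975 to 1.38) in myeloid cells. It was 0.717 (0.487 to 1.04) in naive-marked CD4 cells, 2.73 (0.986 to 8.67) in ILC1 and 1.93 (1.22 to 3.17) in pDC, on 25 and 78 UMIs.

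Hspa1a, a heat shock gene chosen after seeing the data, was also highest in the knockout library. It was at 22.1, 9.26 and 45.6 CPM in B cells, 8.22, 7.30 and 23.0 CPM in other αβ T cells, 9.37, 5.57 and 21.9 CPM in NK cells and 59.8, 48.0 and 115 CPM in myeloid cells. In ILC1, where Cxcr4 was not highest in the knockout, Hspa1a was, on 1, 0 and 11 UMIs. In B cells Hspa1a was lower in WT HFD+HDCA than in WT HFD, and Cxcr4 was not (122 and 128 CPM). Of the early response genes, Fos was at 817, 780.0 and 836 CPM in B cells, highest in the knockout, and at 357, 309 and 289 CPM in other αβ T cells, lowest there. Dusp1 was highest in the knockout in myeloid cells (585, 547 and 726 CPM) and other αβ T cells (171, 168 and 196 CPM). In B cells (258, 287 and 262 CPM), NK cells and ILC1 it was not. Fosb was lowest in the knockout in B cells (244, 206 and 200.5 CPM) and other αβ T cells (88.8, 67.55 and 58.0 CPM). It was also lowest in the knockout in NK cells (90.9, 62.8 and 38.55 CPM), but not in myeloid cells or ILC1. The part of these genes in the Cxcr4 values was not tested, and genotype and single library cannot be told apart.

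**Figure D5:**
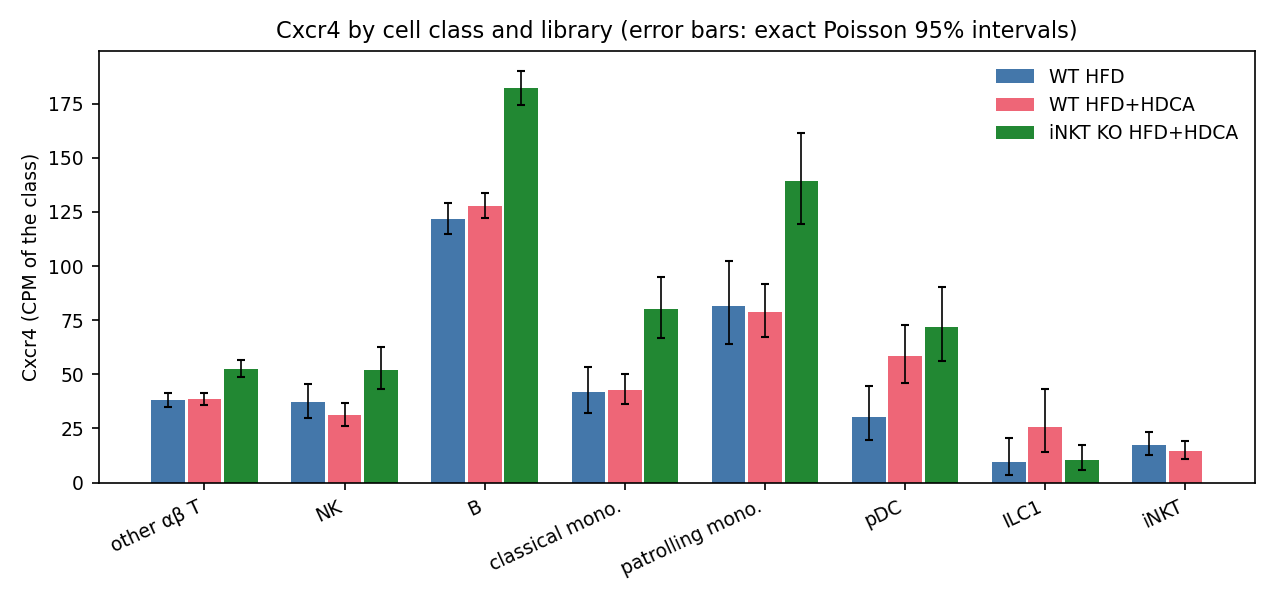
Cxcr4 level in CPM by class and library, with exact Poisson 95% intervals; iNKT cells have no bar for the knockout, which had 1 such cell. The knockout bar is the highest in other αβ T, NK, B and both monocyte classes, and in ILC1 it is not.

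In effector-marked T cells, Cx3cr1, Ccr6 and Ccr2 stood apart between these libraries. In CD8 cells Cx3cr1 was at 48.2 and 19.6 CPM (ratio 0.406, 0.317 to 0.514), in 18.3% and 10.1% of cells. In CD4 effector-marked cells it was the reverse, 14.5 and 36.0 CPM (2.49, 1.43 to 4.38) on 24 and 34 UMIs, of which 1 cell held 29.4% in the knockout. Ccr6 in CD4 effector-marked cells had 66 and 7 UMIs (0.186, 0.0721 to 0.406), and Ccr2 was at 186 and 108 CPM (0.580, 0.459 to 0.727). Cxcr3 in the same cells was at 376 and 414 CPM (1.10, 0.967 to 1.25) and Cxcr6 at 305 and 350 CPM. In regulatory T cells, Cxcr3 was at 286 and 170 CPM (0.593, 0.427 to 0.811) and Ccr2 at 204 and 110 CPM (0.539, 0.357 to 0.793). In WT HFD, Ccr2 of regulatory T cells (92.4 CPM) and Ccr6 of CD4 effector-marked cells (11.4 CPM, against 39.8 and 7.41) lay nearer to the knockout. Ccr2 of CD4 effector-marked cells (149.5 CPM) and Cxcr3 of regulatory T cells (236 CPM) lay between these libraries. Cx3cr1 of WT HFD lay near WT HFD+HDCA, at 46.3 CPM in CD8 and 14.7 CPM in CD4 effector-marked cells.

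In ILC1 (79 WT and 180 knockout cells under HDCA), Cxcr6 was at a ratio of 1.05 (0.883 to 1.26) and Cxcr3 of 0.985 (0.834 to 1.17). Ccr2 was at 0.849 (0.791 to 0.911) in classical monocytes. In B cells Cxcr3 was lower (0.460, 0.319 to 0.654), which came to a log2 ratio of -0.38 in place of -1.12 when doublets were kept, and Ccr9 was higher (2.46, 1.45 to 4.28) on 23 and 43 UMIs. B cells of WT HFD had Cxcr3 at 4.17 CPM and Ccr9 at 3.13 CPM, near the knockout at 3.78 and 3.70 CPM. Myeloid Cxcr6 had 12 and 63 UMIs, of which 1 knockout cell held 55.6%, and without the top cell of each library the log2 ratio was 2.32 in place of 3.36. Ccr7 of patrolling monocytes, at 4 and 49 UMIs, had 95.9% of the knockout UMIs in 1 cell. Ccr9 in pDC was at a ratio of 1.13 (1.01 to 1.25).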

How the data were processed

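The authors deposited, per the file headers and labels, UMI counts per gene and cell made with Cell Ranger 8.0.1 and T cell receptor contig tables for 3 RNA and 3 TCR libraries. The submitters' processing notes name both mm10 and GRCm39, and which of them served the counts is not given in sources used here. Counts were used as deposited. A kept cell had 200 genes or more, less than 10% of its UMIs from mitochondrial genes, and no doublet call from Scrublet (scanpy 1.11.5). Classes came from contigs and marker UMIs.

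UMIs were summed per library and class (at least 50 cells) and tested with edgeR 4.0.16 (quasi-likelihood, TMM, class and library as terms), with Benjamini-Hochberg adjustment over all genes and a threshold of 0.05. The library term is the replicate block: the classes of a library come from the same cells sorted together. The fits had 17 sums for the 6 classes and 12 for the T subsets. Between groups, with 1 library each, no test was run: CPM, shares and ratios carry exact Poisson, Clopper-Pearson and conditional exact 95% intervals, ratios needed 20 UMIs, and 1.5-fold was the size named. A limit for 0 is 3 counts.

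All 9 receptors are named in every class. Of the other lists, up to 3 genes with the most UMIs are named, with the 3 genes most correlated with each receptor over log2(CPM + 10). Other genes named were chosen after their values were seen. Members, lists and rules were chosen with earlier results of these data known. Alternatives were DESeq2 1.42.0, other size factors, no filter, no library term, each library left out, doublets kept, a 5% mitochondrial limit, stricter gates, cells thinned to 2000 UMIs, and other folds and minimum counts. The scripts were tested on simulated data. Cells without a class, and normal-diet mice, entered no comparison. Some genes of the other-receptor and tissue-exit lists are not reported here, and those 2 lists carry no count or median.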

Additional observations from a re-analysis of the deposited data

How the results depend on the processing

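Of 122 recomputed counts of receptors called or past the fold, 119 stayed within 1.5 times the main count. The exceptions concern the ratios between libraries: with a fold of 2, 5 pairs in place of 9 were apart for HDCA in WT and 7 in place of 12 for the knockout under HDCA, and with each cell thinned to 2000 UMIs 6 pairs were apart for the knockout. A larger fold and fewer UMIs leave fewer pairs by construction. Leaving out a library in turn, and every other alternative, kept the class counts at 8 to 9 for iNKT against other αβ T cells, 3 to 4 for NK cells against ILC1 and 2 to 3 for ILC1 against iNKT cells. The counts were 8 to 9 for B and for myeloid against other αβ T cells, 5 to 7 for the CD4 and 6 for the CD8 split. Without the replicate block (the library term), the Cxcr4 call between NK cells and ILC1 was lost, at a log2 difference of 1.504 in place of 1.64. Of 842 recomputed class differences of single receptors, 12 lost their call, 8 gained one, and no called value changed sign. Depth limits the near-absent genes: Ccr6 outside B cells, Ccr9 and Ccr7 in NK cells and ILC1, and Cxcr5 in iNKT cells rest on few UMIs.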

Other observations

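Cells with both NK and ILC1 markers, outside all classes, carried a mixed set of receptors. They numbered 108, 203 and 196 in WT HFD, WT HFD+HDCA and the knockout. Cx3cr1 was at 9.56, 28.8 and 92.9 CPM in them, in 6.48%, 12.3% and 27.6% of cells. Ccr2 was at 241, 227 and 142 CPM, in 60.2%, 53.7% and 35.7% of cells. Ccr6 had no UMI in any of the 3 libraries. T cells with CD3 UMIs and no contig (133, 222 and 245 cells) had Cxcr6 at 221, 161 and 238 CPM.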
